A study of Homo sapiens with 6 samples.

Results

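Cytarabine (Ara-C), a cytidine analogue used against acute leukemia, depends on a short chain of transporters and enzymes for its effect in a cell. The 10 genes described here, SLC29A1, SLC29A2, DCK, CMPK1, CDA, DCTD, NT5C2, SAMHD1, RRM1 and RRM2, were chosen by name for their part in that chain, out of 19775 genes measured. Earlier results of these data were known when the genes were chosen. They are represented by every probe set that the platform annotation assigns to 1 of these symbols alone, 27 of 54613 probe sets. The arrays came from K562, a human erythroleukemia line derived from chronic myeloid leukemia, carrying the pTRE-ERG construct, from which doxycycline (DOX) switches on the ETS transcription factor ERG. RNA of 3 stably transfected clones, CL4, CL9 and CL46, was hybridized to Affymetrix U133 Plus arrays. Each clone was grown with 1 µg/ml DOX (ERG-induced) and without it (non-induced), which gave 3 arrays per group. The labels give 8 days of DOX, and no array came from cells treated with cytarabine. Each clone contributed 1 culture per condition, so errors rest on the spread between clones. The test used draws that spread toward that of all probe sets or genes, which widened the errors of the least variable ones. An effect of ERG cannot be told apart from an effect of DOX.

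Nucleoside analogues cross the plasma membrane mainly through the equilibrative transporters ENT1 and ENT2, encoded by SLC29A1 and SLC29A2. Deoxycytidine kinase (DCK) adds the first phosphate, which is the rate-limiting step of activation, and UMP/CMP kinase (CMPK1) adds the next. Cytidine deaminase (CDA) and deoxycytidylate deaminase (DCTD) convert the drug or its monophosphate to inactive uracil forms, the nucleotidase NT5C2 removes the phosphate, and SAMHD1 hydrolyses the active triphosphate. Ribonucleotide reductase, of the large subunit RRM1 and the small subunit RRM2, supplies the natural deoxynucleotides that compete with the drug.

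The deposited values are linear ratios, for most probe sets to their own median over the 6 arrays. Levels of different genes cannot be compared. The median of the 6 values was 1 in 26 of the 27 member probe sets and below 1 in that of CDA. The divisor of CDA was therefore larger than its median, and what it was is not stated. The median ratio per array ran from 0.898 to 0.998 in the arrays labelled ERG-induced and from 0.990 to 1.07 in those labelled non-induced. Ribosomal RNA control probe sets differed the same way in each clone, ERG-induced above non-induced by 0.59 to 1.21 on the log2 scale, and their part in the results was not tested. The 4 probe sets of ERG itself gave log2 differences of -1.35, -1.93, -0.50 and 0.72 (SE 0.34 to 1.48). None passed the thresholds given below, and the probe set at -1.93 was lower in all 3 clones. These probe sets do not show raised ERG in the arrays labelled ERG-induced. Their position relative to the introduced sequence is not known, and groups are therefore given as labelled. Because the ratios hold no brightness, the presence or absence of markers of K562 or of other cells could not be judged. Of 8 erythroid genes measured 1 was lower, of 7 lymphocyte genes 1 was higher and 1 lower, of 8 fibroblast genes 1 was higher and 1 lower, and of 9 monocyte and granulocyte genes 0 passed the thresholds given next.

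None of the 27 probe sets passed the study's thresholds of a fold of 2 and a p of 0.05 in either direction, applied here with the unadjusted two-sided p of limma. Among all 54613 probe sets, 2.82% were called higher and 8.16% lower in the arrays labelled ERG-induced. With the ratios as deposited, 0 member probe sets had an unadjusted p under 0.05 without the fold limit, and the lowest adjusted p among them was 0.389. Of all 54613 probe sets, 1768 were higher and 5412 lower at that rule. The count of members was 1 after centring the arrays (SLC29A1). It was 2 after quantile normalization (SLC29A1 and DCTD) or with medians under 1 left out (SLC29A1 and NT5C2). Adjusted p in these settings was 0.312 to 0.356, and counts over all probe sets at that rule are not given for them. No probe set of the whole table passed an adjusted p of 0.05 (lowest 0.0860). Averaged over the probe sets of a gene, 0 of 10 genes were called, against 3.12% of all genes called higher and 6.32% called lower. After quantile normalization of the arrays, 1 of the 27 was called higher, a probe set of SLC29A1. The calls over all probe sets, 1539 higher and 4454 lower, became 2036 and 3484 in that setting, and those over all genes, 617 and 1250, became 848 and 923. The median over all genes moved from -0.03 to 0.08 after centring the arrays on their medians and to 0.11 with quantile normalization, a shift to be set beside the smaller differences below.

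**Figure D1:**
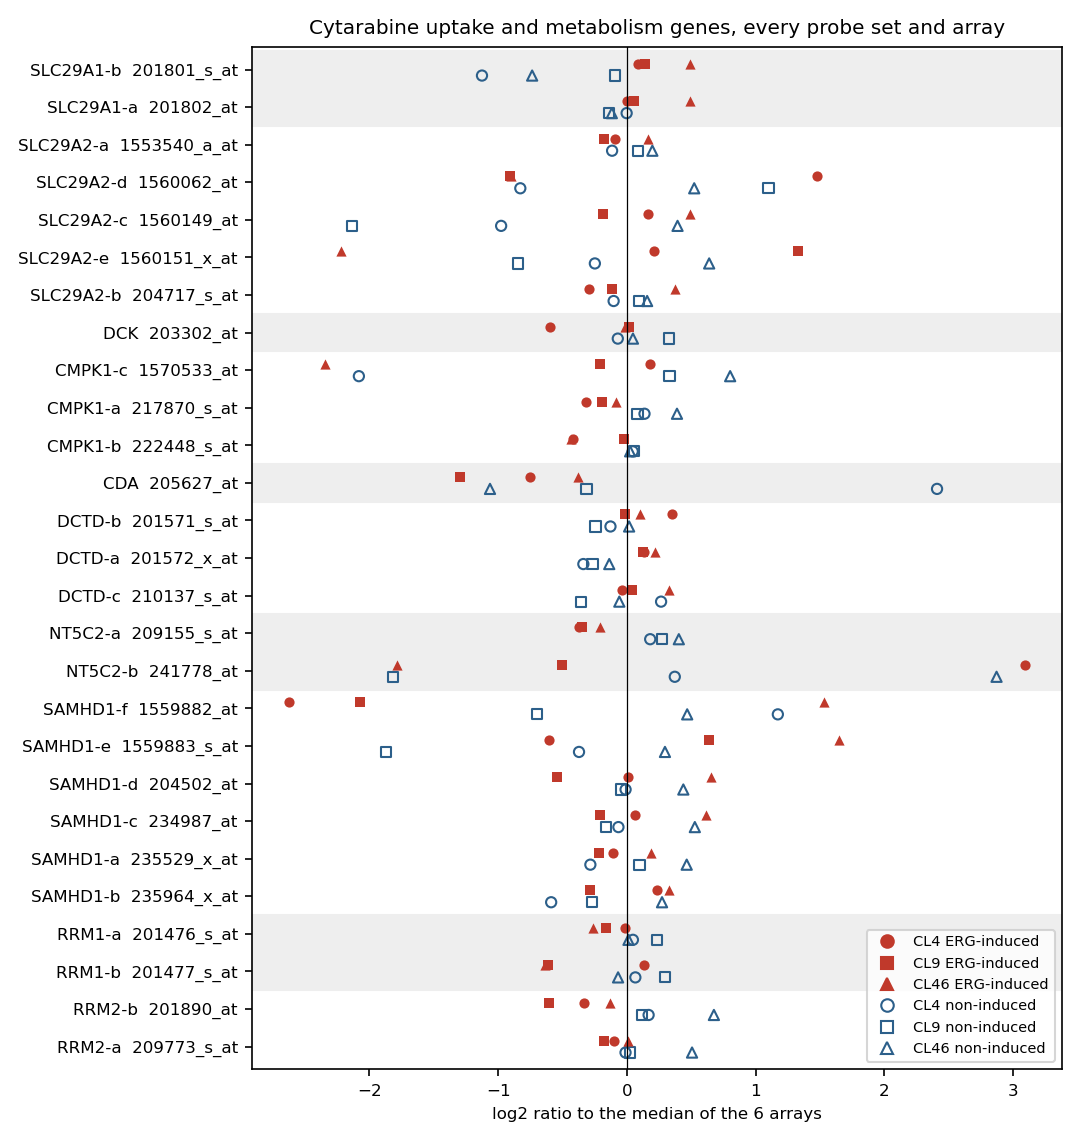
Log2 of the deposited ratio (horizontal axis) for each of the 27 probe sets of the 10 genes (vertical axis), in each of the 6 arrays. Filled red symbols are arrays labelled ERG-induced and open blue symbols arrays labelled non-induced, with 1 shape per clone. The colours separate fully in 8 rows, for instance NT5C2-a, while rows such as NT5C2-b spread over several log2 units.

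Several of the least variable probe sets nevertheless differed the same way in each clone. Where a gene has several probe sets, they are lettered from the smallest SD within groups (a) upward, and the plots give their platform names. The arrays of both groups did not overlap in 8 of the 27. The 3 that stood higher in the arrays labelled ERG-induced were both probe sets of SLC29A1 and 1 of DCTD. This is 11.1% of the members against 7.14% of all probe sets. The 5 that were lower were 2 of CMPK1 and 1 each of NT5C2, RRM1 and RRM2, which is 18.5% of the members against 15.1% of all probe sets. All 3 clones moved up in 5 members and down in 7, where 16.5% and 24.3% of all probe sets did so. The median log2 difference was -0.14 over the 27 probe sets and -0.09 over all probe sets. These shares lay near those of the whole array.

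The members differed in how variable they were. The SD within groups was below the median of all probe sets (0.77 on the log2 scale) in 19 of the 27 and above it in 8. In the 19 tighter probe sets the log2 difference ran from -0.68 to 0.89, 8 did not overlap, and the clones moved in 1 direction in 11. A small SD itself favours both, and of all probe sets with an SD below that median 34.5% did not overlap and 55.1% moved in 1 direction. In the 8 wider ones it ran from -1.37 to 1.21 with SEs of 0.68 to 1.70, and the clones moved in 1 direction in 1. The 4 members with a log2 difference of 1 or more in size, of CDA, SLC29A2 and SAMHD1 (2 probe sets), all belonged to the wider set.

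**Figure D2:**
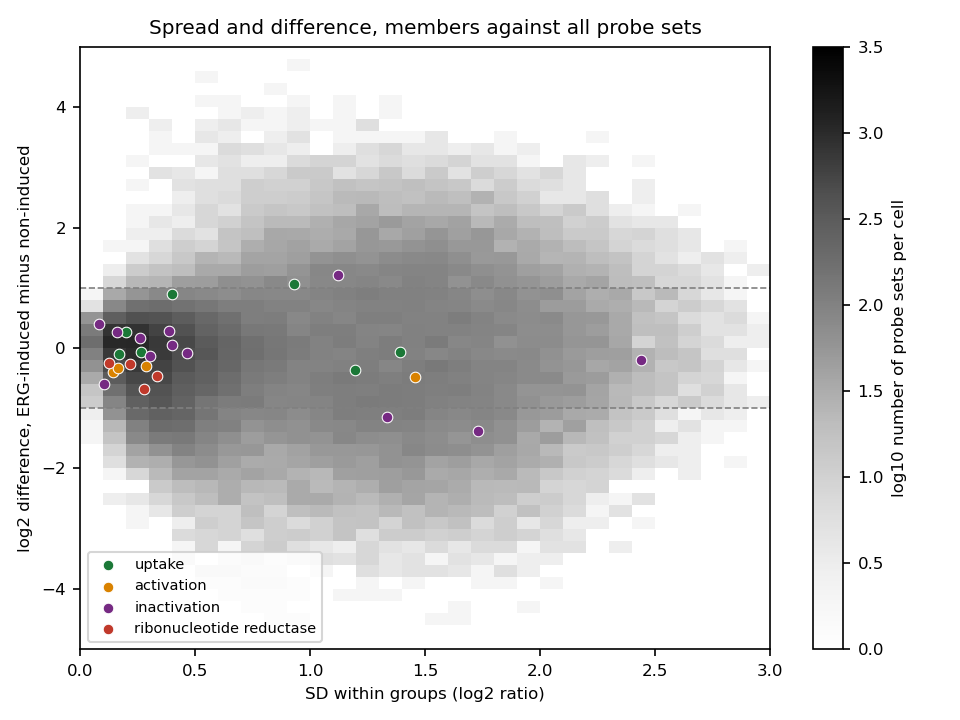
Log2 difference, ERG-induced minus non-induced arrays (vertical axis) against the SD within groups (horizontal axis, log2 ratio). Grey cells count all probe sets within the axes on a log10 scale, coloured points are the 27 members by role, and dashed lines mark a fold of 2. Of the members, 19 have an SD below 0.77 and lie between -0.68 and 0.89.

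Among the promoters, the windows of RefSeq on GRCh38.p14 (250 bases before to 50 after an annotated start) were searched for CCGGAA, a core bound by ETS factors such as ERG, on both strands. It was found in 5 of 14 windows of 9 members and in 17.2% of all 35116 windows. Overlapping windows of RRM2 hold the same site, 208 and 37 bases before their starts, and it was counted in each. The count of windows is therefore not a count of separate sites. The genes with a match were SLC29A1, DCK, DCTD and RRM2. The stretches below, of 100 bases upstream of a listed start, show the match in SLC29A1, DCK and RRM2. None of the 4 genes with a match was called, and a link between a match and a direction was not tested. Capitals mark CCGGAA or its reverse complement TTCCGG, which begins 158 bases before the start in SLC29A1, 202 in DCK and 37 in RRM2. The stretches lie on the plus strand at chr6:44219415-44219514, chr4:70993399-70993498 and chr2:10122468-10122567.
SLC29A1: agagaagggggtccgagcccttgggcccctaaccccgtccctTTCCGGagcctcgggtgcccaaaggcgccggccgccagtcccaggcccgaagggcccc
DCK: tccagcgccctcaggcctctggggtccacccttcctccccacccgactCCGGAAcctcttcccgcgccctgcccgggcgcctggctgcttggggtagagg
RRM2: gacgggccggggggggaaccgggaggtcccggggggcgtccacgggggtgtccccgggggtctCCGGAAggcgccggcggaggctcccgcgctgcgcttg
The E2F core TTTGGCGC was found in the window of DCK, at 21 bases after the start, and in 0.652% of all windows. The other E2F core searched, TTTCCCGC, was found in that of CDA and in 1.63% of all windows. Neither overlapped a CCGGAA match, and no match here says that a factor binds.

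SLC29A1, the main route of cytarabine into leukemia cells, was the member with the lowest p. Its probe set SLC29A1-b had ERG-induced ratios of 1.06, 1.10 and 1.41 in CL4, CL9 and CL46 and non-induced ratios of 0.458, 0.936 and 0.600. Every array labelled ERG-induced was thus above every non-induced array, but CL9 contributed little. The difference was 0.89 on the log2 scale, a fold of 1.86 (SE 0.36, 95% CI -0.01 to 1.80, adjusted p = 0.389). Within the clones it was 1.22, 0.24 and 1.23, and without CL9 the mean was 1.22 and met the study's thresholds. The other probe set, SLC29A1-a, had ratios of 1.00, 1.04 and 1.41 against 0.999, 0.908 and 0.922. It stood higher in CL46 and at nearly the same value in both arrays of CL4, with a log2 difference of 0.27 (95% CI -0.41 to 0.95). The probe sets thus shared the direction and differed in size, and the mean over both was 0.58 (SE 0.27, adjusted p = 0.438).

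SLC29A2, the second equilibrative transporter, has 5 probe sets. In SLC29A2-b the ratios were 0.815, 0.922 and 1.30 against 0.931, 1.07 and 1.115, and in SLC29A2-a they were 0.939, 0.883 and 1.12 against 0.923, 1.06 and 1.15. The groups overlapped in both, with log2 differences of -0.06 (95% CI -0.81 to 0.68) and -0.09 (95% CI -0.75 to 0.57), which turned to 0.04 and 0.01 with each array centred on its median. A change by a fold of 2 lay outside both intervals. The other 3 had an SD within groups of 0.93 or more. Of these, SLC29A2-c gave 1.06, the clones CL4, CL9 and CL46 lying at 1.14, 1.95 and 0.09, and SLC29A2-d and SLC29A2-e moved in opposite directions between clones.

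No probe set of the activating kinases was called. The only probe set of DCK had ratios of 0.660, 1.01 and 0.991 in the arrays labelled ERG-induced of CL4, CL9 and CL46 and of 0.952, 1.25 and 1.03 in the non-induced arrays. The value was lower in all 3 clones, but the groups overlapped, since non-induced CL4 lay below the arrays labelled ERG-induced of CL9 and CL46. The log2 difference was -0.30 (SE 0.31, 95% CI -1.07 to 0.47, adjusted p = 0.735), with -0.53, -0.31 and -0.06 by clone. A difference just past a fold of 2 remained within this interval.

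CMPK1 had a pair of tight probe sets. In CMPK1-a the ratios were 0.803, 0.876 and 0.941 against 1.10, 1.06 and 1.31, a log2 difference of -0.40 (SE 0.26, 95% CI -1.04 to 0.24, adjusted p = 0.583). In CMPK1-b they were 0.749, 0.983 and 0.741 against 1.03, 1.04 and 1.02, a difference of -0.33 (95% CI -0.99 to 0.32). The groups did not overlap in either, and in CMPK1-b CL9 moved by -0.08 where the other clones moved by -0.46 each. The last probe set, CMPK1-c, gave 2.26, -0.54 and -3.15 in CL4, CL9 and CL46 and no shared direction. The mean over the 3 was -0.40 (SE 0.40, adjusted p = 0.733), with CL4 at 0.45.

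No probe set of the inactivating enzymes was called. CDA, the deaminase of the free drug, has 1 probe set. In CL4, CL9 and CL46 its ratios were 0.593, 0.407 and 0.770 in the arrays labelled ERG-induced. In the non-induced arrays they were 5.31, 0.804 and 0.478. The non-induced CL4 array stood far above the other 5. The log2 difference of -1.15 (SE 0.95, 95% CI -3.51 to 1.21, adjusted p = 0.668) became -0.15 without CL4, and CL46 moved the other way, by 0.69. Its median over the 6 arrays was 0.681, so its ratios were not to that median. CDA was the only member whose median lay below 1.

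DCTD, the deaminase of the monophosphate, stood higher in all 3 of its probe sets. The tightest of all 27, DCTD-a, had ratios of 1.10, 1.09 and 1.16 against 0.791, 0.831 and 0.909 and gave 0.47, 0.39 and 0.36 by clone. Its groups did not overlap, with a log2 difference of 0.41 (SE 0.25, 95% CI -0.20 to 1.02, adjusted p = 0.555). The other probe sets, DCTD-b and DCTD-c, gave 0.26 and 0.16, and in the latter CL4 gave -0.30. The mean over the gene was 0.28 (SE 0.23, adjusted p = 0.672), higher in 3 of 3 clones.

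NT5C2, which dephosphorylates the drug monophosphate, has 2 probe sets that differed widely in spread. In NT5C2-a the ratios were 0.773, 0.787 and 0.866 with ERG induction and 1.13, 1.21 and 1.32 without it. The groups did not overlap, and the clones gave -0.55, -0.62 and -0.61 on the log2 scale, an SD of 0.036, the smallest among the 27 probe sets. The mean was -0.59, 1.51-fold lower (SE 0.25, 95% CI -1.21 to 0.03, adjusted p = 0.401). The other probe set of the gene, NT5C2-b, ranged from 0.284 to 8.54 across the arrays, with 2.72, 1.31 and -4.66 by clone, and its SD within groups was above that of 98.5% of all probe sets. The mean over both was -0.40 (SE 0.85, adjusted p = 0.888), with 1.09, 0.35 and -2.63 by clone.

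SAMHD1, which removes the active triphosphate, has 6 probe sets, and 3 stood above and 3 below 0. Its 4 tight probe sets, SAMHD1-d, SAMHD1-c, SAMHD1-a and SAMHD1-b, gave log2 differences of -0.09, 0.06, -0.14 and 0.29, with 95% CIs from -1.08 at the lowest to 1.18 at the highest. In SAMHD1-d the ratios were 1.01, 0.686 and 1.58 against 0.993, 0.967 and 1.35, and in SAMHD1-c they were 1.04, 0.866 and 1.53 against 0.955, 0.892 and 1.44. Both arrays of CL46 lay above the other 4 arrays in all 4 tight probe sets, by means of 0.45 to 0.69 on the log2 scale, which was more than the difference between conditions in each. The same held for 3 probe sets of SLC29A2, so that 7 of the 27 members (25.9%) were highest in both arrays of CL46, against 9.29% of all probe sets. All 7 belong to SAMHD1 and SLC29A2, and probe sets of the same gene are not independent. This clone pattern was noticed after the values were seen. The remaining probe sets, SAMHD1-f and SAMHD1-e, gave -1.37 and 1.21 with SEs of 1.22 and 0.81. The signs of SAMHD1-d and SAMHD1-a turned after quantile normalization, to 0.10 and 0.0044.

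**Figure D3:**
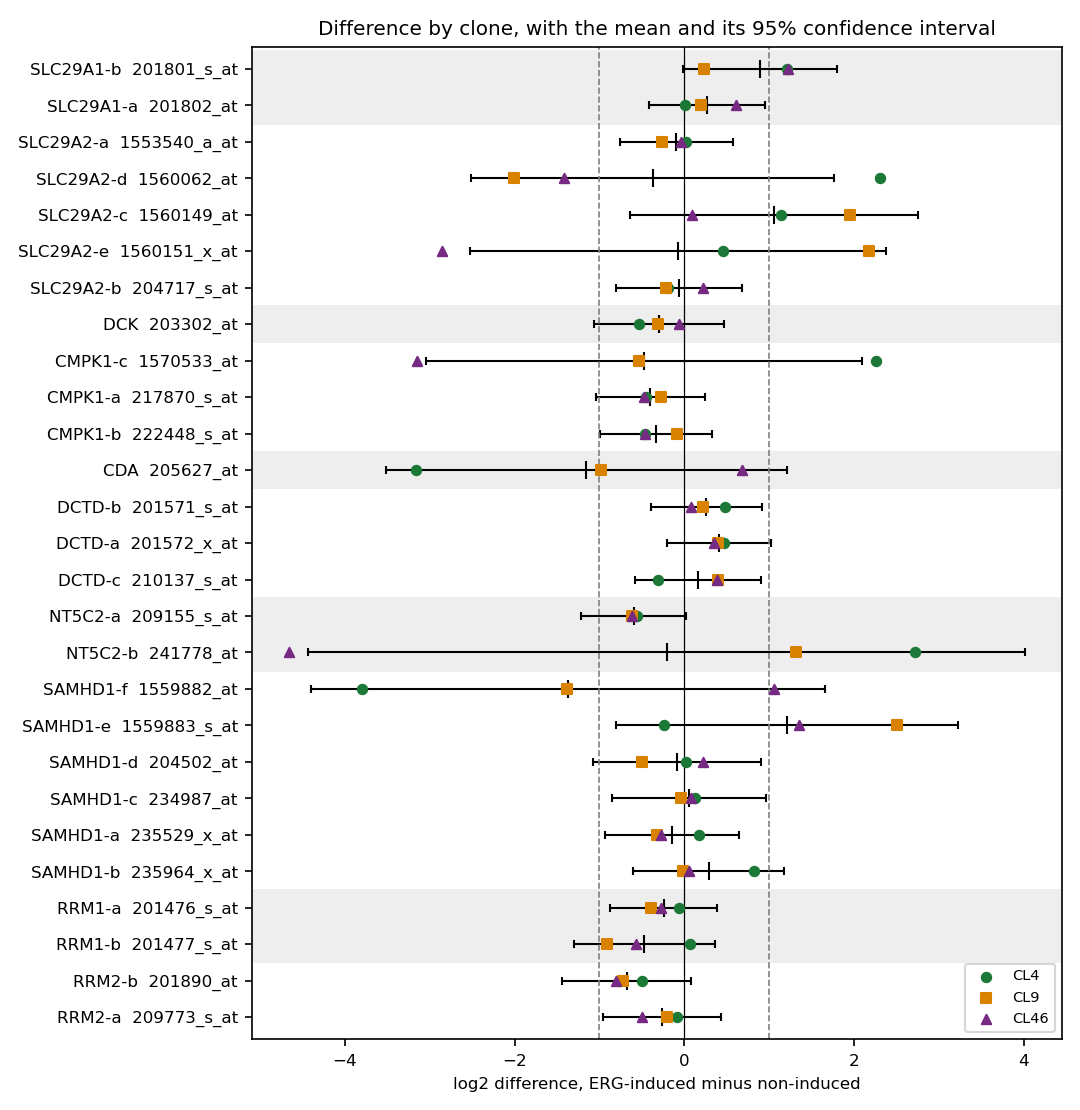
Log2 difference, arrays labelled ERG-induced minus non-induced (horizontal axis), for the 27 probe sets (vertical axis). Coloured symbols are the clones CL4, CL9 and CL46, black bars the limma mean with its 95% confidence interval, and dashed lines a fold of 2. Every interval includes 0, and the clones lie closest together in NT5C2-a and DCTD-a.

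No probe set of the ribonucleotide reductase subunits was called. For RRM2, the S phase subunit, RRM2-b had ratios of 0.795, 0.658 and 0.913 in the arrays labelled ERG-induced of CL4, CL9 and CL46. In the non-induced arrays they were 1.12, 1.09 and 1.60. No array overlapped, and the clones gave -0.50, -0.72 and -0.81 on the log2 scale. The mean difference was -0.68, 1.60-fold lower (SE 0.31, 95% CI -1.44 to 0.08, adjusted p = 0.432). The other probe set, RRM2-a, had ratios of 0.934, 0.882 and 1.01 against 0.993, 1.01 and 1.42, a log2 difference of -0.26 with all 3 clones lower. The mean over the gene was -0.47 (SE 0.27, adjusted p = 0.534).

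RRM1, the catalytic subunit, had ratios in RRM1-a of 0.992, 0.895 and 0.831 against 1.03, 1.18 and 1.01, which did not overlap. The log2 difference was -0.24 (SE 0.25, 95% CI -0.87 to 0.39), with -0.06, -0.39 and -0.28 by clone. In RRM1-b it was -0.47 (SE 0.33), where CL4 stood at 0.07 and CL9 at -0.91. CL4 thus moved little in both probe sets of RRM1, and the mean over the gene was -0.36 (adjusted p = 0.632), with CL4 at 0.0036.

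The limma test draws the variance of each probe set toward that of all others. Without that step, 1 member was higher at an unadjusted p under 0.05 with no fold limit, DCTD-a, where 3.83% of all probe sets were. The 3 that were lower were NT5C2-a, CMPK1-a and RRM2-b, where 10.0% of all probe sets were. In the order named, their adjusted p in that fit was 0.192, 0.181, 0.288 and 0.331, and none reached a fold of 2.

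The other genes of the pathway were compared by 7 lists, of which 70 of 75 genes were measured. Of these 70, 0 were higher and 3 were lower at the study's thresholds, where 3.12% of all genes were higher and 6.32% lower. The median log2 difference was 0.07, against -0.03 for all genes and -0.33 for the 10 members. Both the lists and the members were chosen with earlier results of these data known. RRM2B, the p53-inducible small subunit of ribonucleotide reductase, has 1 probe set and stood 2.15-fold lower (adjusted p = 0.236). CL4, CL9 and CL46 gave log2 differences of -1.08, -1.16 and -1.07. POLA1, the catalytic subunit of DNA polymerase alpha, also has 1 probe set and stood 3.21-fold lower (log2 difference -1.68, SE 0.31, adjusted p = 0.192). It was the only call among 12 subunits of replicative polymerases, whose median was 0.05. POLE4 (-0.52) and POLE2 (-0.41) were not called. Of RRM2B, ABCC11 and POLA1, only POLA1 was also called after quantile normalization, RRM2B and ABCC11 were not called without CL4, and ABCC11 was not called without CL46.

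Among 5 transporters of nucleoside analogues out of the cell, ABCC11 was called lower (-1.24, adjusted p = 0.343). Its probe sets gave -0.85 and -1.63, neither was called by itself, and the former rested on CL4 alone. ABCC4, which exports nucleotide analogues, differed by 0.59 and ABCC5 by -0.40, each in the same direction in 3 clones and neither called. Of the 5 other nucleoside carriers, 0 were called, with SLC28A1, a concentrative transporter, at -0.97 (adjusted p = 0.417), SLC28A2 at -0.48 and SLC29A3 at 0.24. Of 11 other nucleoside and nucleotide kinases, 0 were called. TK2, the mitochondrial thymidine kinase, stood at 0.65, and the nucleoside diphosphate kinases NME4 and NME3 at 0.61 and 0.65. Of 6 other 5'-nucleotidases, 0 were called, with NT5E at -0.74 in the same direction in all clones, NT5C3A at -0.47, and NT5C1A at 2.003 with 4.05 in CL4.

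The 22 S phase genes served for comparison with RRM1 and RRM2. None was called in either direction, 13 stood above and 9 below 0, and their median was 0.07. CHAF1A, a histone chaperone subunit of replicating chromatin, stood at 0.96 and GINS2, of the replicative helicase, at 0.76, both higher in all 3 clones, and CCNE2, a cyclin of S phase entry, at -0.79. In pyrimidine supply, the remaining genes with the lowest p were UMPS (0.45) and DHODH (-0.42), enzymes of pyrimidine synthesis, and 1 of the 9 genes of that list was called, RRM2B.

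**Figure D4:**
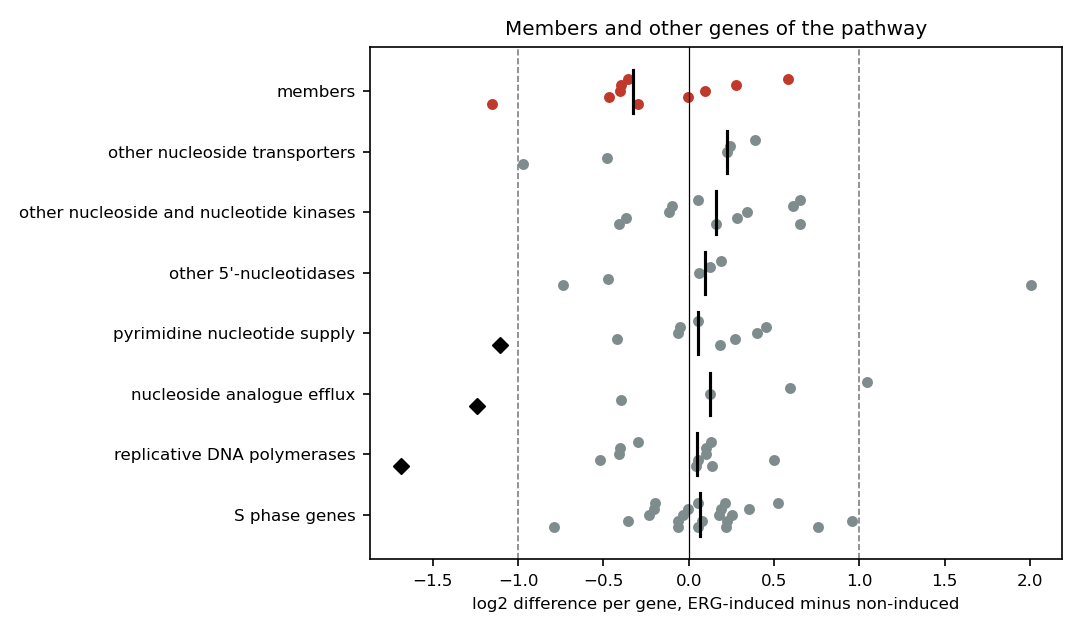
Log2 difference per gene, arrays labelled ERG-induced minus non-induced (horizontal axis), for the 10 members (red) and the 7 other lists of the pathway (grey). Vertical bars are the medians, black diamonds the genes that passed the study's thresholds, and dashed lines a fold of 2. The diamonds are RRM2B, ABCC11 and POLA1. The median of the members lies at -0.33, and by clone it was 0.11 (CL4), -0.13 (CL9) and -0.24 (CL46).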

How the data were processed

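RNA of 3 K562 pTRE-ERG clones, with and without DOX, was hybridized to 6 arrays. The authors processed them with GeneSpring and deposited linear ratios, 1 per probe set and array. The median over the 6 arrays was 1 within 1e-05 in 50737 of 54675 rows, which were thus divided by it. It was lower in 3938, whose divisor is not stated. Background correction and array scaling before the division were not stated in the methods or labels, and 6 arrays limit the precision. After 62 control rows were left out, the log2 ratios entered limma 3.58.1 (R 4.3.3) fits (lmFit, eBayes, two-sided, Benjamini-Hochberg over all probe sets or all genes). A gene is the mean over its probe sets. The study's fold of 2 and p under 0.05 served as thresholds, and the unadjusted limma p was the choice made here. All 27 probe sets matched RefSeq by gene ID with the same symbol. Members and lists were chosen with earlier results of these data known. Named are all members, up to 3 genes with the lowest p per pathway list, and ERG. The fits were tested on simulated data that held added differences and no shift between arrays, so that test does not cover such shifts. Clone numbers pair the arrays (same clone). Deviations of same-clone arrays correlated at 0.03, 0.02 and 0.03 in CL4, CL9 and CL46 across probe sets. Alternatives were the clone as a block, centring, quantile normalization, no moderation, a pseudocount, other thresholds and each clone left out.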

Additional observations from a re-analysis of the deposited data

How the results depend on the processing

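With the clone as a replicate block, 0 members were called, and all probe sets gave 1714 higher and 4430 lower; the block changed no call of a member. Quantile normalization called 1 member probe set higher (SLC29A1-b, 1.12), against 0 as deposited. Leaving out a clone gave 0 to 1 higher and 0 to 1 lower member probe sets, and 0 member genes. The probe sets were SLC29A1-b without CL9, SLC29A2-d at -1.71 without CL4 and SAMHD1-f at -2.59 without CL46. Their adjusted limma p was 0.494, 0.352 and 0.531. Of all 54613 probe sets, 1715 were called higher without CL9, 4183 lower without CL4 and 3118 lower without CL46. No moderation gave 932 probe sets and 369 genes higher over the whole table, and an adjusted p under 0.05 gave 0 in each count, where 1768 probe sets were higher and 5412 lower at an unadjusted p under 0.05 in limma. Of the other pathway genes, 1 was higher with centred arrays or quantile normalization (CHAF1A), 2 at a fold of 1.5 or with no fold limit (a setting chosen after seeing the data), and 0 to 1 when a clone was left out. Of those genes 1 was lower after quantile normalization or with a pseudocount of 0.1 (POLA1), 2 to 3 when a clone was left out, and 0 at an adjusted p. The genes lower with a clone left out changed. They were POLA1 and CCNE2 without CL4, RRM2B, ABCC11 and POLA1 without CL9, and SLC28A2, RRM2B and POLA1 without CL46. ABCC11 was not called with centred arrays or without moderation.

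Directions of small differences turned with centring and quantile normalization in SLC29A2-a (0.013 and 0.024), SLC29A2-e (0.032 and 0.038, and 0.0063 with the pseudocount) and SLC29A2-b (0.042 and 0.043), and in SAMHD1-d (0.019 and 0.10). SAMHD1-a turned to 0.0044 after quantile normalization, and the gene mean of SAMHD1 to 0.10, 0.16 and 0.018 with centring, quantile normalization and the pseudocount. SLC29A2 was -0.091 when its tightest probe set stood for the gene. Leaving out a clone gave ranges across 0 of -1.71 to 0.44 (SLC29A2-d), -1.20 to 1.32 (SLC29A2-e), -0.20 to 0.013 (SLC29A2-b), -1.84 to 0.86 (CMPK1-c), -1.67 to 2.02 (NT5C2-b) and -0.24 to 0.12 (SAMHD1-d). For gene means they were -0.24 to 0.54 (SLC29A2), -0.83 to 0.076 (CMPK1), -1.14 to 0.72 (NT5C2) and -0.22 to 0.23 (SAMHD1). The causes were not tested. Leaving out probe sets with a median under 1 removes CDA. Signal over background is unknown here.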
